A study of Mus musculus with 3 samples.

Results

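The genes described here encode 8 transcription factors of the epithelial to mesenchymal transition (EMT): Snai1, Snai2, Twist1, Twist2, Zeb1, Zeb2, Prrx1 and Prrx2. They were found on the arrays by gene name or synonym, with Zeb1 and Zeb2 listed under the older names Zfhx1a and Zfhx1b in some files. The 8 genes were covered by 17 of 41174 probes, and they make up 8 of 27537 gene labels. Expression was measured on 3 one-colour arrays, 1 for each group. The groups were p53-null mouse embryonic fibroblasts (MEF) with a Nanog-GFP reporter, embryonic stem (ES) cells with the same reporter, and Nanog-GFP MEF, which are taken as the p53 wild-type MEF of the design text. All 3 groups therefore carry the reporter. The p53 allele, the mouse strain, the number of embryos and the passage are not stated in the labels, and whether a group holds 1 or several animals is unknown. The design text sets MEF against p53-null MEF and against ES cells, in a study of the part p53 plays in making induced pluripotent cells. There were no replicates, so no test between groups was possible. Values carry the technical error of the scanner software's error model only, which is about 10% of a bright signal.

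EMT transcription factors are DNA-binding proteins that switch off genes of epithelial cell contacts and allow cells to take on a mesenchymal, migratory form. Snai and Zeb proteins are zinc finger repressors that bind E-box motifs in epithelial promoters such as that of Cdh1, the E-cadherin gene. Twist proteins are basic helix-loop-helix factors, and Prrx proteins are homeodomain factors of limb and craniofacial mesenchyme. Fibroblasts are mesenchymal cells, whereas ES cells grow in tight colonies held together by E-cadherin. When fibroblasts are reprogrammed, an early step is the reverse of EMT.

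The arrays had their 75th percentile of signal at 1040.0 units for p53-null MEF, 834 for ES cells and 829 for MEF. Each signal was divided by that value before arrays were compared, and differences are given on the log2 scale. As a check of the labels, Trp53, the p53 gene, had 56.3 units at its brighter probe in p53-null MEF, against 1304 in MEF and 4902 in ES cells. Its other probe gave 260.5, 572 and 304 units in the same order. The scaled log2 differences between p53-null MEF and MEF were -4.87 at the brighter probe and -1.46 at the other. The allele is not described, and whether either probe lies in the altered part of the gene was not tested. Of 8 fibroblast markers, all were well above background on both MEF arrays and 7 on the ES cell array, and ES cells had all 8 at least 2-fold below MEF. Of 8 ES cell markers, all were well above background in ES cells, 2 in p53-null MEF and 3 in MEF. The p53-null MEF array was on another slide and scanned at another time than the other arrays, which shared both, with a median local background of 44 units against 27 on each of the others, so slide, scan and p53 genotype cannot be told apart.

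All 8 EMT factor genes were lower in ES cells than in MEF, by 7.59-fold for Zeb1 to 118-fold for Prrx1. Of all gene labels with a value, 27.3% were lower by 2-fold or more in that comparison. All were still well above background in ES cells at their brightest probe. Between the fibroblast arrays none differed by 2-fold or more, where 18.6% of gene labels were that much higher and 16.6% lower in p53-null MEF. Snai1 alone of the 8 was higher in p53-null MEF. These directions hold for the brightest probe of each gene under 75th percentile scaling. With scaling on spike-in controls all 8 were higher in p53-null MEF by 2-fold or more. So were 92.0% of all gene labels with a value, and 98.9% of the gene labels past 2-fold.

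**Figure D1:**
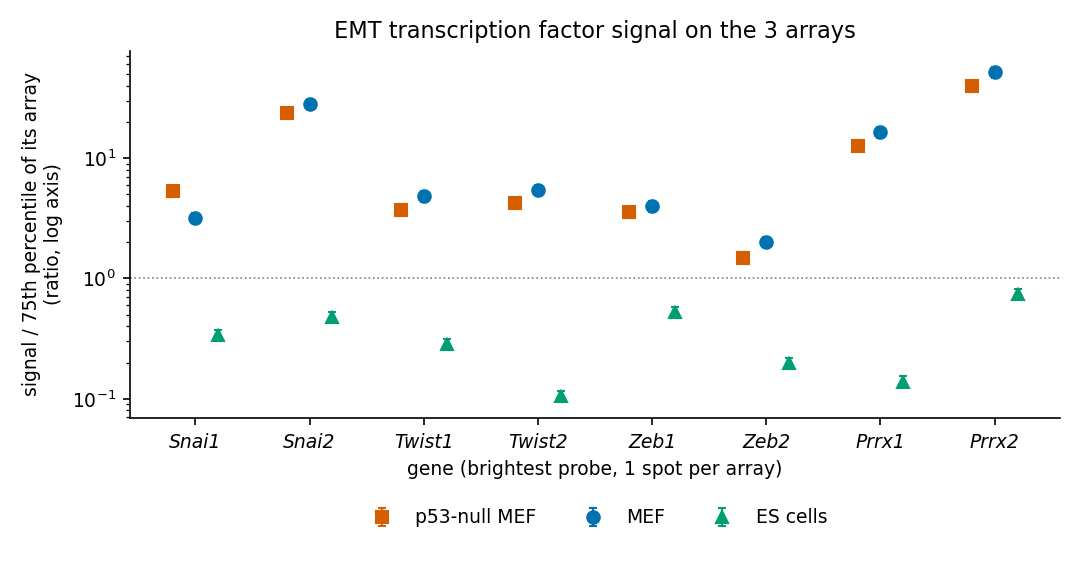
Signal of each EMT factor gene at its brightest probe, divided by the 75th percentile of its array (log axis), for p53-null MEF (squares), MEF (circles) and ES cells (triangles), with bars for the error model where they exceed the symbol. Every gene lies above 1 on both fibroblast arrays and below 1 on the ES cell array. Heights of different genes come from different probes and cannot be compared.

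The Snai genes encode repressors that act directly on epithelial promoters. The signal of Snai1, which encodes Snail, was 285 ± 28.6 units in ES cells, 2648 ± 265 in MEF and 5501 ± 550.1 in p53-null MEF (error model). Its signal was highest in p53-null MEF and lowest in ES cells. The scaled difference from MEF was 0.73 ± 0.20 in p53-null MEF and -3.23 ± 0.20 in ES cells, the latter 9.36-fold lower. Snai2, which encodes Slug, had 401 ± 40.2 units in ES cells, 23509 ± 2351 in MEF and 24416 ± 2442 in p53-null MEF. Both fibroblast signals of Snai2 were high, with a scaled difference of -0.27 ± 0.20 in p53-null MEF against MEF, and the ES cell signal was 58.9-fold below MEF (-5.88 ± 0.20). The Snai1 probe lies on chromosome 2, 167233778 to 167233837, and the Snai2 probe on chromosome 16, 14622846 to 14622905, both on build mm8. The exon or UTR a probe lies in is not given here, since only probe coordinates were used for mm8.

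Twist1 and Twist2 are close relatives that act in mesenchyme of the embryo. Twist1 had 239 ± 24.1 units in ES cells, 4009.8 ± 401 in MEF and 3822 ± 382 in p53-null MEF. Twist2 had 88.2 ± 9.1 units, 4537 ± 454 and 4417 ± 442 in the same order. Both were low in ES cells only, by 16.9-fold for Twist1 and 51.8-fold for Twist2 against MEF. The ES cell difference of Twist2 exceeded that of Twist1 by 1.62 ± 0.29 on the log2 scale. In p53-null MEF the differences from MEF were -0.40 ± 0.20 and -0.37 ± 0.20. The Twist1 probe lies on chromosome 12, 34544793 to 34544852, and the Twist2 probe on chromosome 1, 93678348 to 93678406 (mm8).

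Zeb1 and Zeb2 repress epithelial genes and are themselves held down by microRNAs of the miR-200 family. Zeb1 had 436 ± 43.7 units in ES cells, 3290.0 ± 329 in MEF and 3680.2 ± 368 in p53-null MEF. Its 7.59-fold difference between MEF and ES cells (-2.92 ± 0.20) was the smallest among the 8 genes, though within 2 technical errors of that of Snai1. With the mean of all probes Zeb2 was lower in size at -2.77, a mean that takes in a clone probe near background. The brightest Zeb2 probe had 166 ± 16.7 units in ES cells, 1666 ± 167 in MEF and 1542 ± 154 in p53-null MEF, a difference of -3.34 ± 0.21 for ES cells against MEF. In p53-null MEF against MEF, Zeb1 differed by -0.17 ± 0.20 and Zeb2 by -0.44 ± 0.20 at these probes. The Zeb1 probe lies on chromosome 18, 5774613 to 5774672, and this Zeb2 probe on chromosome 2, 44809263 to 44809322 (mm8).

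Prrx1 and Prrx2, the homeodomain genes, headed the order of differences between ES cells and MEF at the brightest probes. The brightest Prrx1 probe had 116 ± 11.8 units in ES cells, 13569 ± 1357 in MEF and 13233 ± 1323 in p53-null MEF. Prrx2 had 623 ± 62.3 units, 42667 ± 4267 and 41094 ± 4109 in the same order. Both genes were high on the 2 fibroblast arrays and low in ES cells. Prrx1 was 118-fold and Prrx2 69.0-fold lower in ES cells than in MEF, and the gap between them was 0.78 ± 0.29 on the log2 scale. With normexp background correction and 75th percentile scaling they stood closer, at -6.22 for Prrx1 and -6.08 for Prrx2. With the mean of all probes Prrx1 was at -4.88, behind Prrx2 (-6.11), Snai2 (-5.88) and Twist2 (-5.69). That mean takes in probes on cDNA clones near background, with bounds of -0.64 and -0.57. The other Prrx1 probes on RefSeq transcripts gave -6.94, -6.90 and a bound of -7.37. The first place of Prrx1 therefore depends on whether the clone probes are counted. Against MEF, p53-null MEF differed by -0.36 ± 0.20 for Prrx1 and -0.38 ± 0.20 for Prrx2. The Prrx1 probe lies on chromosome 1, 165094518 to 165094577, and the Prrx2 probe on chromosome 2, 30703082 to 30703142 (mm8).

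Set side by side, 8 of 8 EMT factor genes were called lower (2-fold or more) for ES cells against MEF, where 27.3% of 18666 gene labels were called in that direction and 32.9% in the other. Their median log2 difference was -4.88, beside 0.21 over all gene labels. At the brightest probes, the order from the largest difference was Prrx1, Prrx2, Snai2, Twist2, Twist1, Zeb2, Snai1 and Zeb1. The gaps from Prrx1 to Prrx2, from Twist2 to Twist1 and from Twist1 to Zeb2 were over 2 technical errors, and the other neighbours in that order did not differ beyond it. Against p53-null MEF, which is another comparison with the same ES cell array, the differences ran from -6.52 for Prrx1 to -2.76 for Zeb1. In that comparison 23.9% of gene labels were called lower and 26.9% higher. In bulk RNA, fewer cells expressing a gene and less RNA per cell cannot be told apart.

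Between the fibroblast arrays 0 of 8 genes were called at their brightest probe, with 18.6% of 17392 gene labels called higher and 16.6% lower in p53-null MEF. These calls were 52.8% higher ones, against 71.1% without scaling and 98.9% with spike-in scaling. The median of the 8 genes was -0.37, beside 0.03 over all gene labels. The 7 genes other than Snai1 ran from -0.44 for Zeb2 to -0.17 for Zeb1, and no neighbours among them differed beyond 2 technical errors. Snai1 lay 0.89 ± 0.29 above Zeb1, the next in order. Without scaling, Snai1 was at 1.05 and so past 2-fold, and Snai2 and Zeb1 turned to 0.05 and 0.16, where the median of all gene labels was 0.38. With spike-in scaling that median was 2.61, Snai1 stood above it at 3.21, and the other 7 stood below it, from 2.05 to 2.32. Glia and neural crest markers, which mark other cells where Snai and Twist genes are active, moved in the same comparison. Of 8 such markers, p53-null MEF had 6 lower by 2-fold or more and 0 higher. Their summed signal was 1375 units there against 5575 in MEF, with S100b at 551 and 3664 and Ngfr at 19.8 and 948. Ngfr differed by -5.95 on the log2 scale at its brightest probe and -0.42 at another, and Erbb3 by -1.65 and 0.36. Sox10, at 16.8 units in p53-null MEF and 186 in MEF, was well above background in MEF but not in p53-null MEF. Of 8 macrophage markers, 3 were lower and 1 higher, with summed signals of 638 units in p53-null MEF and 2561 in MEF. Lyz2 alone gave 126 and 1980.4 of these units. It differed by -4.3 on the log2 scale at its brightest probe and by -0.51 at its other probe. The summed signals of both sets of cell markers were not scaled. Of 8 skeletal muscle markers, 3 were higher and 1 lower in p53-null MEF, and of 8 endothelium markers 2 were higher and 2 lower. The part of any such cells in the result was not tested.

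**Figure D2:**
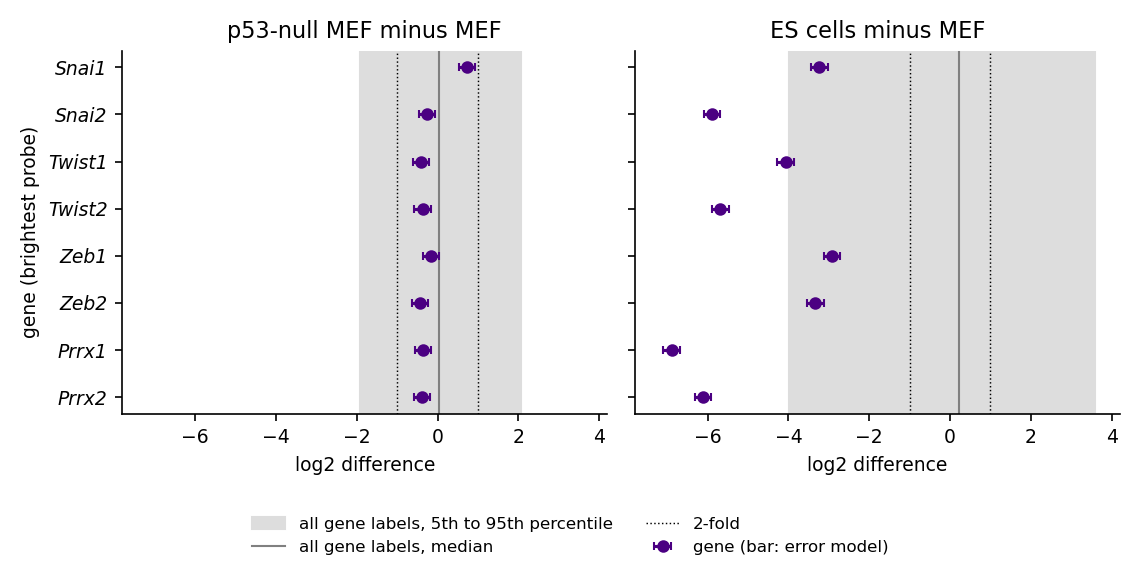
Log2 difference of each EMT factor gene at its brightest probe (points, with the error model as bars) for p53-null MEF minus MEF (left) and ES cells minus MEF (right). The grey band spans the 5th to 95th percentile of all gene labels. All 8 genes lie left of the 2-fold line in ES cells, and none passes a 2-fold line between the fibroblast arrays.

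Zeb2 and Prrx1 had several probes, and those did not give 1 answer for the fibroblast comparison. Of the 13 probes designed on RefSeq transcripts over all 8 genes, 0 were called higher in p53-null MEF and 1 lower. Of the 4 probes designed on other cDNA clones, all of Zeb2 or Prrx1, 2 were called higher and 0 lower. Over the array, 31.2% of 7133 probes on such other sequences were called higher in p53-null MEF and 12.2% lower, against 14.6% and 18.3% of 19392 probes on RefSeq transcripts. For ES cells against MEF, 13 of 13 RefSeq probes and 1 of the 3 clone probes with a value were called lower. There 28.7% of RefSeq probes over the array were called lower and 31.4% higher, and of probes on other sequences 20.2% and 40.0%.

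For Zeb2, the 3 RefSeq probes differed by -0.44 ± 0.20, 0.86 ± 0.20 and -0.19 ± 0.21 between p53-null MEF and MEF. The middle value came from a probe at chromosome 2, 44810557 to 44810616, with 44.9 units in ES cells, 437 in MEF and 998 in p53-null MEF. A probe on clone AK031541, 36.47 kb upstream of the 3′-most Zeb2 probe, had 12.2 units in ES cells, 25.6 in MEF and 169.6 in p53-null MEF. It was 5.27-fold higher in p53-null MEF than in MEF (2.40 ± 0.25), so the direction for Zeb2 depends on the probe, and the mean of all its probes was 0.65. In ES cells against MEF the RefSeq probes of Zeb2 lay close together, from -3.35 to -3.29, while the clone probe differed by -1.08 ± 0.37. The ES cell signal of this clone probe was close to 10.1 units, the dimmest signal marked well above background on that array. The remaining clone probe, on AK051204, gave 24.0 units in p53-null MEF and was not well above background on the other arrays.

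For Prrx1, 3 RefSeq probes gave -0.36, -0.37 and -0.50 (each ± 0.20) for p53-null MEF against MEF and -6.88, -6.94 and -6.90 (each ± 0.21) for ES cells against MEF. The 3′-most probe, designed on NM_175686, which the file describes as transcript variant 2, differed from them. It had 673 ± 67.4 units in p53-null MEF and 1655 ± 166 in MEF, a 3.08-fold lower scaled signal (-1.63 ± 0.20), and was not well above background in ES cells at 3.57 units. That makes it at least 165-fold lower in ES cells than in MEF. The probe on clone AK029347, 36.06 kb further upstream, went the other way in the fibroblasts, with 117 ± 12.2 units in p53-null MEF and 15.7 ± 3.04 in MEF (2.57 ± 0.32). That MEF signal was close to the array's detection floor of 12.4 units, its dimmest spot marked well above background. The probe on clone AK038736 had 3.75 units in ES cells, 14.9 in MEF and 15.6 in p53-null MEF, with MEF alone well above background. Probes of 1 gene were at least 2-fold apart in the fibroblast comparison for 30.9% of 5543 genes with more than 1 measured probe.

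**Figure D3:**
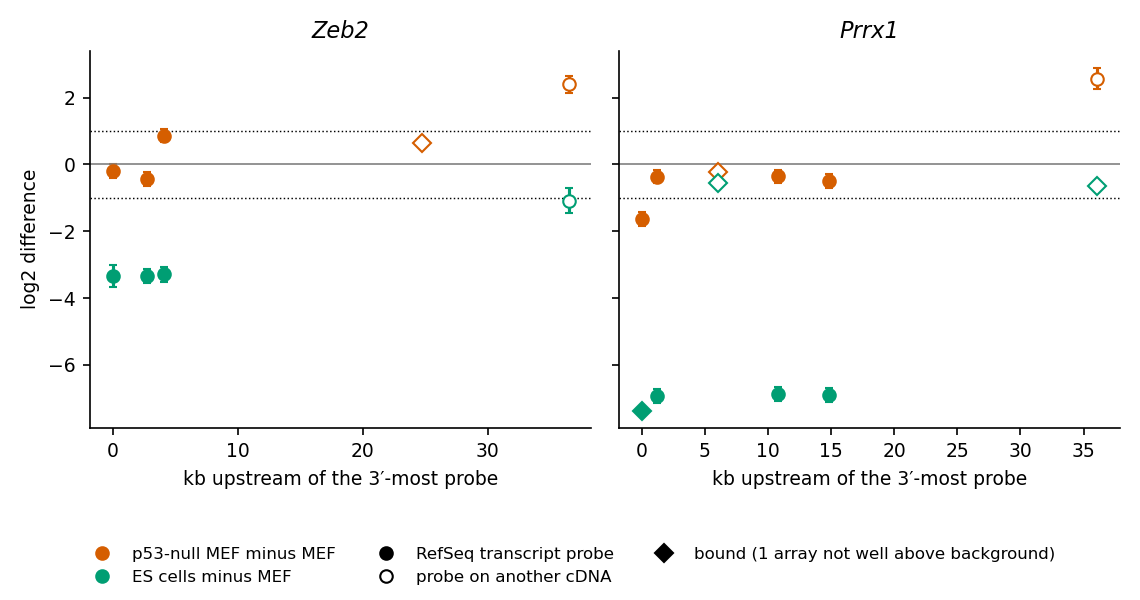
Log2 difference at each Zeb2 (left) and Prrx1 (right) probe against its distance, in kb, upstream of the gene's 3′-most probe, with bars for the error model. Filled symbols are probes on RefSeq transcripts, open symbols probes on other cDNA clones, and diamonds bounds; the open symbols at 36.47 kb in Zeb2 and 36.06 kb in Prrx1 are the highest of their gene in p53-null MEF against MEF, at 2.40 and 2.57.

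Epithelial genes that EMT factors are known to repress went the other way in ES cells. Of 28 such genes, 22 were called higher in ES cells than in MEF and 3 lower, beside 32.9% and 27.3% of all gene labels. Their median was 4.13, with 13 of the 28 values bounds, and lay between 2.40 and 4.90 over 13 other ways of processing. Cdh1 gave 15802 units in ES cells, 9.67 in p53-null MEF and 3.42 in MEF, so that neither fibroblast array had it well above background. Epcam, an adhesion gene, gave 9202, 32.6 and 2.87 units in the same order, and Spint1, a protease inhibitor gene, was 76.0-fold higher in ES cells than in MEF. The exceptions were the keratin genes Krt7 and Krt19, lower in ES cells by -5.21 and -4.67 on the log2 scale, and Marveld3, at -1.35 with another probe at 3.42.

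The same list showed no common direction between the fibroblast arrays. There p53-null MEF had 4 genes higher by 2-fold or more, 4 lower and 9 neither, and 11 had no value because neither array was well above background. Both shares of the genes with a value are near the 18.6% higher and 16.6% lower of all gene labels. The genes past 2-fold on the higher side were Cldn3 at 1.45, Krt18 at 1.23, and Epcam and Tjp3 at bounds of 1.07 and 1.02. On the lower side were the protease gene St14, at least 17.2-fold, the desmoplakin gene Dsp at 6.31-fold, Marveld3, at least 4.11-fold, and Llgl2 at -1.48. Of 8 keratinocyte and epithelium markers, 4 were also called lower in p53-null MEF and 2 higher. The lower ones were Krt14 at -4.28 (26.9 units against 416 in MEF), Trp63 at -2.04, Krt15 at -1.27 and Krt5 at a bound of -1.16, and the higher ones were Krt18 and Epcam. The summed signal of these markers, not divided by the 75th percentile, was 7778 units in p53-null MEF and 4067 in MEF. Krt18 alone gave 6939 and 2364 of these units, and Krt8 gave 709.6 and 1122. Cdh1 was not above background on either array. The part of these markers in the result was not tested. All values of this list in this comparison are those under 75th percentile scaling. With spike-in scaling its median of 0.24 became 2.78, beside 2.61 for all gene labels.

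The E-box to which Snai and Zeb repressors bind was looked for as CACCTG, or CAGGTG where it lies on the other strand, in the 250 bases before the start of each gene (RefSeq windows, build GRCm38.p6). Of 17 epithelial genes with a window, 12 held at least 1 such motif and 6 held 2 or more in a window, beside 19.4% and 2.39% of 27025 genes. The remaining epithelial genes of the list, Cdh1 among them, had no window and are not in these counts. None of 14 mesenchymal genes with a window held one, and of 6 EMT factor genes with a window only Snai1 did. A match is a description of these letters and not a measured binding site. The windows below belong to Epcam (chr17:87635729-87635978, plus strand), Crb3 (chr17:57061951-57062200, plus strand), Rab25 (chr3:88548280-88548529, minus strand), Ap1m2 (chr9:21312334-21312583, minus strand) and Snai1 (chr2:167537945-167538194, plus strand). They are shown because the first 4 genes are epithelial genes with several motifs and Snai1 encodes one of the repressors. The motifs are in capitals, and each sequence runs 5′ to 3′ on the strand of its gene and ends at the base before its start.
Epcam: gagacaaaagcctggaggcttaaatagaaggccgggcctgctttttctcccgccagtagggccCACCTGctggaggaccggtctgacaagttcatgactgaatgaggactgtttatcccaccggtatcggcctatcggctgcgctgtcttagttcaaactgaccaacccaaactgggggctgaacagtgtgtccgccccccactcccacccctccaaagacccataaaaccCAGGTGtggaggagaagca
Crb3: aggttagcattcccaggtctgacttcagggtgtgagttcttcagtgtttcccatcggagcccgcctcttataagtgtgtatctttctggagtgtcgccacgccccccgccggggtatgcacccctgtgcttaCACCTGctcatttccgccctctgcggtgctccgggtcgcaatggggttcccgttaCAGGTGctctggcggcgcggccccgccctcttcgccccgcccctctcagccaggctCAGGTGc
Rab25: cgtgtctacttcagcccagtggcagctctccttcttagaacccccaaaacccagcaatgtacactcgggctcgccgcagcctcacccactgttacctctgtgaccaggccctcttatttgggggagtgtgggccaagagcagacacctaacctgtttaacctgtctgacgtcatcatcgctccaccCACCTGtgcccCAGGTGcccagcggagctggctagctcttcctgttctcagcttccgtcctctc
Ap1m2: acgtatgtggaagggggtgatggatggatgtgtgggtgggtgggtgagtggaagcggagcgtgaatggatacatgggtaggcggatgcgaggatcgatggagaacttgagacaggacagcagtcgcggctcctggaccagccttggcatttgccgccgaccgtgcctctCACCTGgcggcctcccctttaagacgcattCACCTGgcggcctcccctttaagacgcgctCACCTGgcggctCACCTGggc
Snai1: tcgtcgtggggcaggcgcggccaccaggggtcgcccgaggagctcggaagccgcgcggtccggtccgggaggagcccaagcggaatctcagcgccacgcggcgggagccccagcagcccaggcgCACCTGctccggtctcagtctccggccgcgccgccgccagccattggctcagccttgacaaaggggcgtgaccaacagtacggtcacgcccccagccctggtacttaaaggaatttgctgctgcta

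In the Epcam window the motifs begin at -187 and -19, counting the base before the start as -1. The Crb3 window, of a cell polarity gene, holds 3 at -118, -63 and -7. Rab25 encodes a small GTPase of epithelial vesicle traffic, with motifs at -64 and -53. Ap1m2 encodes an epithelial clathrin adaptor subunit and holds 4 at -81, -51, -21 and -9. All 4 of these genes were well above background in ES cells and not in MEF, with bounds on the log2 difference of 9.53 for Epcam, 4.69 for Crb3, 4.40 for Rab25 and 5.85 for Ap1m2. They were chosen for display after their values were seen, and other genes of the list went differently. Cldn7, with 2 motifs in one of its windows, was well above background in MEF at 60.5 units. Krt7, with a motif at -44, was 36.9-fold lower in ES cells than in MEF, and Krt8 and Krt18, which hold a motif each, had 1122 and 2364 units in MEF. Lad1 and Marveld2 held no motif and were well above background in ES cells but not in MEF. In the Snai1 window the single motif begins at -126.

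Mesenchymal genes followed the EMT factors in ES cells. Of 26 genes, 25 were called lower in ES cells than in MEF, beside 27.3% of all gene labels, with a median of -5.31 beside 0.21. The proteoglycan gene Lum was at least 1059-fold lower, and the collagen genes Col3a1 and Col5a2 were 319-fold and 226-fold lower. Col3a1 differed by -8.32 on the log2 scale at that brightest probe and by -5.63 at another. Vim, the vimentin gene often used to score EMT, was 2.83-fold lower and had 33353 units in ES cells. Cdh2, the N-cadherin gene, differed by -2.54. The exception was Cdh11, higher by 1.18 at its brightest probe, while its other probes lay from -6.82 to -6.80.

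Between the fibroblast arrays, 10 of the 26 mesenchymal genes were called lower in p53-null MEF, 0 higher and 16 neither, with a median of -0.46. Over all gene labels 16.6% were called lower and 18.6% higher. The 8 fibroblast markers are all members of this list, and the 4 of them called lower (Col3a1, Dcn, Lum and Pdgfra) are among the 10. The gelatinase gene Mmp2 was 5.80-fold lower, the proteoglycan gene Dcn 5.76-fold and the fibronectin gene Fn1 5.35-fold. Other Fn1 probes ran from -2.74 to 1.41. Vim, Cdh2 and Acta2 differed by 0.18, 0.02 and -0.17. With spike-in scaling the list's median was 2.03, below the 2.61 of all gene labels.

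**Figure D4:**
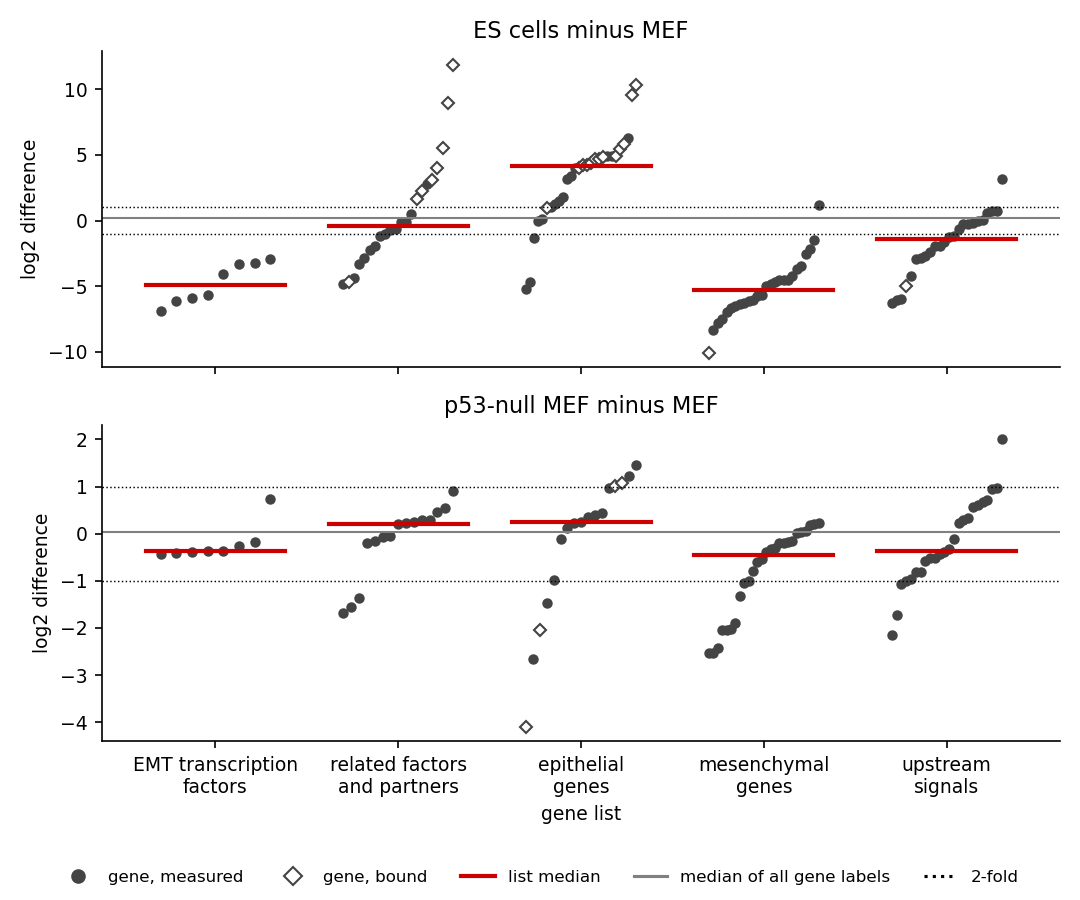
Log2 difference of each gene at its brightest probe in 5 gene lists, for ES cells minus MEF (top) and p53-null MEF minus MEF (bottom); circles are measured differences, diamonds bounds and red lines list medians. In ES cells the EMT factors (median -4.88) and mesenchymal genes (-5.31) lie low and the epithelial genes (4.13) high, while between the fibroblast arrays the medians lie between -0.46 and 0.24.

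Of 22 related factors and binding partners, 8 were called higher and 8 lower in ES cells than in MEF, shares near the 32.9% and 27.3% of all gene labels. The higher ones held factors known to counter EMT, with Grhl2 at least 479.6-fold and Ovol2 at least 44.6-fold higher at their brightest probes. On the log2 scale these bounds are 8.91 and 5.48, while other Grhl2 probes ran from 1.39 to 3.40 and another Ovol2 probe gave 3.94. The helix-loop-helix gene Tcf15 was at least 3615-fold higher. The remaining Snail family gene Snai3 was above background in ES cells alone, at 57.8 units. Of the partners of Twist and Snai proteins, the E protein genes Tcf3, Tcf4 and Tcf12 differed by 0.51, -1.15 and -1.96. Other Tcf12 probes ran from -1.88 to 0.98. Among genes for inhibitors of E proteins, Id1, Id2, Id3 and Id4 differed by -0.66, -0.13, -3.31 and -2.21. The Zeb corepressor genes Ctbp1 and Ctbp2 differed by -0.99 and 2.78. Between the fibroblast arrays 3 of 15 genes with a value were called lower and 0 higher, the lower share being near the 16.6% of all gene labels. These were Hand2 (3.22-fold), Scrt2 (2.93-fold) and Gsc (2.58-fold), all dimmer in p53-null MEF.

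Of 24 genes for signals upstream of EMT, 14 were called lower in ES cells than in MEF, 1 higher and 9 neither, beside 27.3% lower and 32.9% higher over all gene labels. Transforming growth factor beta (TGF-beta) is a main inducer of these factors. Its receptor gene Tgfbr2 was 78.6-fold lower in ES cells at its brightest probe, with another probe at -3.54 on the log2 scale. The ligand genes Tgfb2 and Tgfb3 were 66.5-fold and 61.6-fold lower, and Tgfb1 5.28-fold. The other receptor gene Tgfbr1 was not called, at 0.73. Skil, a feedback inhibitor of TGF-beta signalling, was higher by 3.19. In p53-null MEF, 4 of the 24 were called lower and 1 higher than in MEF, with 16.6% of all gene labels called lower and 18.6% higher. Skil was 3.99-fold higher, and Tgfbr3 and Fgfr1 were 4.40-fold and 3.30-fold lower.

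Genes with the pattern most like each EMT factor over the 3 arrays were sought by distance between log2 values, with each gene's mean removed. The candidates were 8670 gene labels matched to RefSeq, above background on every array and with a range of at least 1 on the log2 scale. With 3 arrays such a match says little, and it is given as a description. Nearest to Snai1 was Tm4sf1 (distance 0.044), to Twist1 the tropomyosin gene Tpm2 (0.033), to Twist2 Hoxc9 (0.073), to Zeb1 Rps6ka4 (0.018) and to Zeb2 Procr (0.009). Msrb3 was nearest to both Snai2 (0.103) and Prrx2 (0.104), and the nearest to Prrx1 were Mogat2 (0.136) and Pdgfrb (0.161). Within a distance of 0.2 there were 51 genes for Zeb1 and 2 for Prrx1. Among the EMT factors themselves, Snai2 and Prrx2 were closest (0.16), followed by Snai2 and Twist2 (0.20) and by Zeb1 and Zeb2 (0.30), and Zeb1 and Prrx1 were farthest apart (3.15).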

How the data were processed

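RNA of 3 samples was read in Cy3 on 1-colour Agilent arrays of the same design. The deposited scanner files hold intensity values on a linear scale from Agilent Feature Extraction 9.5.3.1, background-subtracted and detrended within each array, per the file headers. From these, log2 of the processed signal minus the array's 75th percentile over 43379 non-control spots was computed. Outlier spots (62, 176 and 192 on the p53-null MEF, ES cell and MEF arrays) were left out. A probe counted as above background if 50% or more of its spots had the software's mark. A gene was represented by its brightest probe. Where 1 array was not well above background, the fold was taken against a floor, either the dim probe's signal or that array's lowest marked signal, whichever was higher, written as "at least" or as a bound. No fold was given where neither was. Each EMT factor probe had 1 spot per array. Probes were named with RefSeq (GRCm38.p6), 24375 of them by accession, 6301 by symbol and 2426 by synonym. Positions are those of the mm8 file. Members and lists were chosen with earlier results of these data known. Named genes outside the members were the 3 with the largest difference per list and comparison, the 2 most like each member, and exceptions and well-known members chosen after their values were seen. Normexp, quantile and loess alternatives used limma 3.58.1 in R 4.3.3. The difference calculation was tested on simulated data.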

Additional observations from a re-analysis of the deposited data

How the results depend on the processing

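Of 13 alternatives, each kept all 8 EMT factor genes at least 2-fold lower in ES cells than in MEF. Some of these could not change the result in either comparison. Each brightest probe had 1 unflagged spot per array, marked well above background. Dropping the filter on dim probes, asking the mark of all spots and keeping flagged spots therefore left these genes as they were. The deposited values are nearly the same signals, so they are no separate check. Their median difference of -4.88 moved by over 0.2 in 5 of them, to -4.38 with normexp and 75th percentile scaling, -4.46 with normexp and quantile normalization, -5.11 with median scaling, -4.58 with spike-in scaling and -4.48 with the mean of all probes. Between the fibroblast arrays the count of genes at least 2-fold lower was 0 in every alternative. The count at least 2-fold higher was 1 without scaling and 8 with spike-in scaling, where 27.4% and 92.0% of all gene labels with a value were called higher. The median of -0.37 became -0.04 and 2.12 under these settings, beside 0.38 and 2.61 over all gene labels. Spike-in controls had median signals of 981 units in p53-null MEF, 3566 in ES cells and 4382 in MEF, so that scaling shifts every gene; the cause of the spike-in difference was not tested. The mean of all probes moved Prrx1 in ES cells to -4.88, a mean that takes in its clone probes near background. With 1 array per group no array could be left out. No paired analysis was possible because each group had 1 array.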
